A study of Mus musculus with 16 samples.

Results

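Livers of mice carrying 1 altered copy of Sav1 (Sav1+/-) were set against wild-type livers on 8 of the 16 arrays of the series, 4 for each genotype. All arrays measured total RNA of liver from strain 129 mice on Affymetrix whole-transcript gene arrays, and the deposited values are log2 signals of probe sets. The other 8 arrays were 4 of Rassf1a-/- Sav1+/- livers and 4 of Rassf1a-/- livers, which gave the difference made by the same Sav1 allele where Rassf1a is missing. In the fit of genotype means alone, those 8 arrays enter the Sav1+/- and wild-type means nowhere, but they share in its estimate of the spread. The labels do not say whether Sav1 was altered in the whole body or in the liver alone, and the sources used here give neither sex, age, time of day, replicate numbers nor whether arrays came from separate animals, so p-values measure only the spread between these samples. The arrays measured 19938 genes with a probe set naming 1 gene, and 13152 of them passed the filter on low signal and were tested.

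Sav1 encodes Salvador, the scaffold that holds the MST1 and MST2 kinases of the Hippo pathway in place. MST kinases and Salvador switch on the LATS kinases with their MOB1 cofactors, and LATS kinases phosphorylate the coactivators YAP and TAZ, which keeps them out of the nucleus and away from the TEAD factors. In mouse liver the pathway is known for its control of organ size, and liver lacking both copies of Sav1 is known to overgrow. RASSF1A binds MST kinases and is placed upstream of them.

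The 4 genotypes did not hold the same mix of sex markers. The mean log2 signal of the 3 Y-linked genes measured (Eif2s3y, Kdm5d and Uty) was 3.65, 3.54, 8.87 and 9.16 in the 4 Sav1+/- arrays, against 3.85, 2.09, 3.32 and 3.08 in the 4 wild-type arrays. Xist, expressed from the inactive X chromosome of females, was 11.3, 10.9, 3.32 and 4.31 in the same Sav1+/- arrays, against 11.1, 11.1, 10.6 and 11.4 in wild type. Sav1+/- replicates 3 and 4 were therefore high-Y arrays, and no wild-type array was. Rassf1a-/- livers held 1 high-Y array and Rassf1a-/- Sav1+/- livers held 2. Differences below come from the fit of all 16 arrays unless another is named. For most gene lists and for some genes a value follows from a fit with the high-Y class as a term, or from the low-Y arrays alone, where Sav1+/- has 2 arrays. The term is 1 estimate per gene over all 16 arrays, taken to be the same in every genotype. Arrays of the 2 genotypes without Rassf1a therefore help set the differences from that fit. Liver identity held in all 8 arrays: the 6 hepatocyte markers averaged 13.2 to 13.5 in Sav1+/- arrays and 13.2 to 13.4 in wild-type arrays. Sav1+/- replicates 1 and 2 lay at the ends of overall level, with means over the tested genes of 8.86 and 9.10, against 8.97 to 9.07 in wild type.

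Sav1 itself was lower in every Sav1+/- array. Its log2 signal (probe set 10400795) was 7.60, 8.17, 7.38 and 7.40 in Sav1+/- livers, against 8.55, 8.37, 8.61 and 8.60 in wild-type livers. The groups did not overlap, and replicate 2 of Sav1+/- was the closest to wild type. The means were 7.64 ± 0.37 and 8.53 ± 0.11 (SD, n = 4 each), a log2 difference of -0.90 (SE 0.17), or 1.86-fold lower. An exact two-sided permutation test of Sav1 alone gave p = 0.0286, the smallest that 4 arrays against 4 allow, and the limma fit over all genes gave an adjusted p of 0.110. The difference was -0.78 with the high-Y class as a term and -0.65 in low-Y arrays. Sav1 was 7.63, 7.73, 7.30 and 7.96 in Rassf1a-/- Sav1+/- livers, against 8.68, 8.46, 8.54 and 8.78 in Rassf1a-/- livers, a difference of -0.96. The difference between these 2 effects had an unadjusted p of 0.793 in limma. The labels and the gene's own signal thus ran the same way on all 16 arrays.

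**Figure D1:**
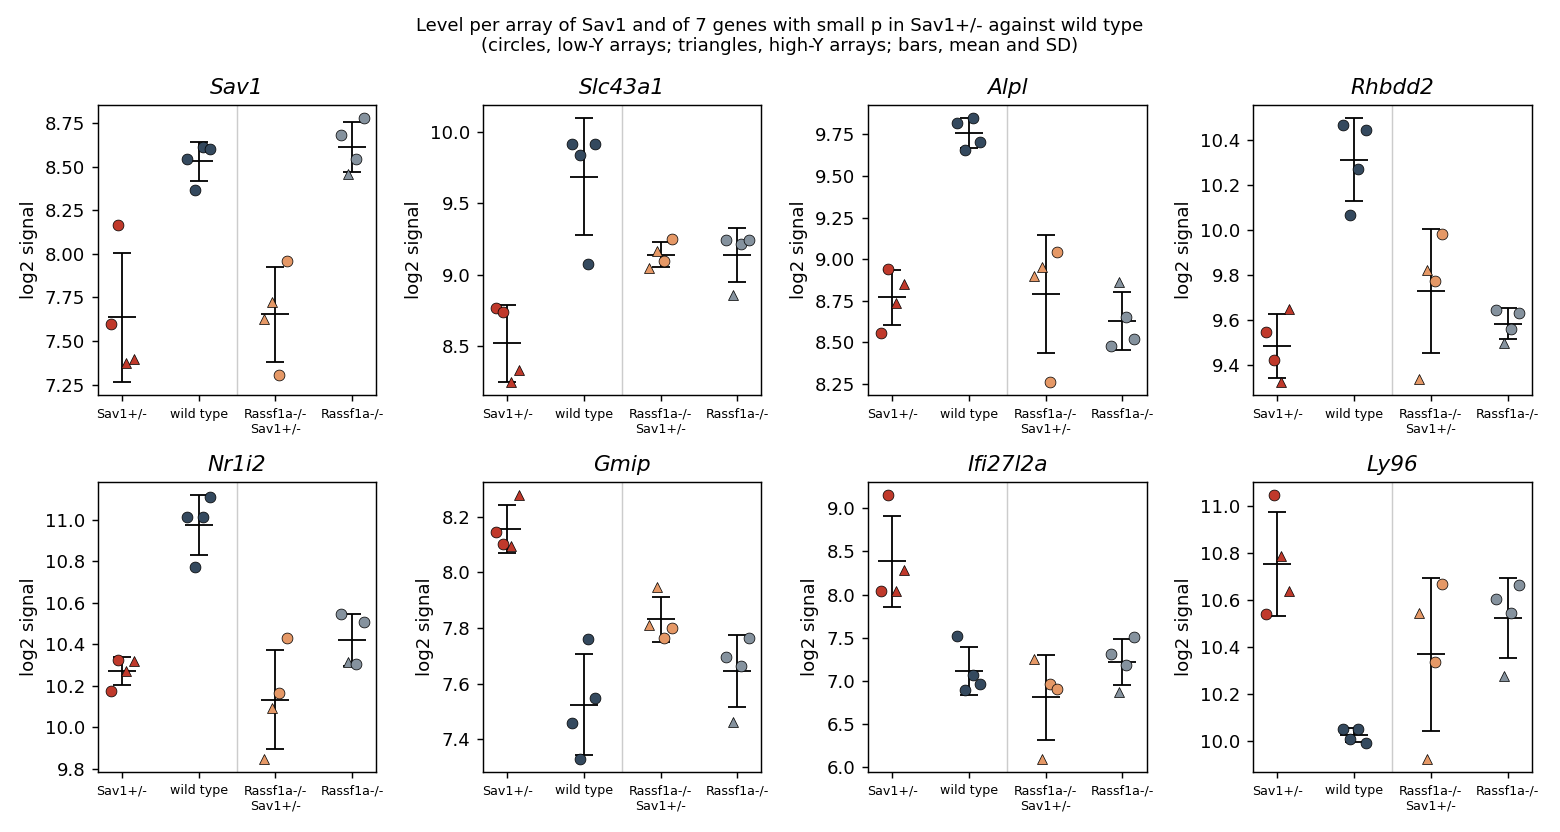
Log2 signal (y axis) of Sav1 and 7 genes with small p in each array of Sav1+/-, wild-type, Rassf1a-/- Sav1+/- and Rassf1a-/- livers, with circles for low-Y and triangles for high-Y arrays and bars for mean and SD. Sav1 is low in both groups carrying the Sav1 allele, while Alpl averages 8.77 in Sav1+/-, 8.79 in Rassf1a-/- Sav1+/-, 8.63 in Rassf1a-/- and 9.76 in wild type.

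The rest of the Hippo pathway differed little between Sav1+/- and wild-type livers. Of the 14 core genes tested, 8 had a higher mean in Sav1+/-, with a median difference of 0.01, and 2 had an unadjusted p under 0.05 in limma, Sav1 and Mob1b. Those shares stand beside 1.69% of all tested genes that were higher and 7.47% that were lower at that p. Mob1b, a LATS cofactor, was 10.20, 10.99, 10.80 and 10.92 in Sav1+/-, against 10.20, 10.29, 10.55 and 10.41 in wild type, a difference of 0.36 (SE 0.17) with an adjusted p of 0.542. Replicate 1 of Sav1+/- lay at the lowest wild-type level, so the groups overlapped. The kinases Stk4 (MST1), Lats1 and Lats2 differed by 0.07, 0.11 and 0.23. The coactivators Yap1 and Wwtr1 (TAZ) differed by 0.17 and 0.01, and the cofactor Mob1a by 0.21. Among the TEAD factors that YAP binds, Tead2, Tead3 and Tead4 differed by -0.10, -0.13 and 0.01. Tead1 was 7.87, 9.05, 7.23 and 7.08 in Sav1+/-, against 8.78, 8.16, 8.60 and 8.36 in wild type, a difference of -0.67 that was -0.06 with the high-Y class as a term. Its low values lay in the high-Y arrays, and replicate 2 lay above every wild-type array. Nf2 and Vgll4, an upstream activator and a TEAD repressor, differed by -0.10 and -0.12, and Rassf1 by 0.07. Stk3, which encodes MST2, has no probe set of its own here.

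Genes that act on the Hippo kinases split evenly. Of 24 tested, 12 were higher in Sav1+/- and the median difference was -0.00, with 2 higher at an unadjusted p under 0.05 in limma, beside 1.69% of all tested genes. Under the high-Y term 11 were higher, the median was -0.03 and none had that p. Rassf3, another RASSF family member, was 8.52, 9.07, 9.57 and 9.96 in Sav1+/-, against 8.61, 8.43, 8.65 and 8.55 in wild type. The 0.72 difference of Rassf3 was 0.23 with the high-Y class as a term, its highest values being those of the high-Y arrays. Dlg5, a cell polarity scaffold, differed by 0.37 and averaged below the filter level in wild type.

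Genes that YAP and TEAD are known to activate had a median difference near 0 in Sav1+/- against wild type. Of 23 tested, 14 had a higher mean in Sav1+/-, beside 45.9% of all tested genes. Their median difference was 0.05 beside -0.02 over all tested genes, and none was higher at an unadjusted p under 0.05 in limma. Their mean level was 8.52, 8.88, 8.44 and 8.59 in Sav1+/- arrays, against 8.54, 8.46, 8.66 and 8.72 in wild-type arrays, with replicate 2 of Sav1+/- the highest and replicate 3 the lowest of the 8. Ccn1 (CYR61) was 7.98, 9.08, 8.09 and 8.22 in Sav1+/-, against 6.97, 8.06, 8.21 and 8.37 in wild type, a difference of 0.44 (SE 0.31) within overlapping groups. Axl, a receptor tyrosine kinase, differed by 0.49, with 11.19 in Sav1+/- replicate 2 and 9.14 to 9.93 in the other Sav1+/- arrays, against 9.10 to 9.70 in wild type. Myc went the other way. It was 7.77, 8.05, 6.89 and 7.75 in Sav1+/-, against 9.07, 8.36, 8.15 and 8.61 in wild type, with no overlap, a difference of -0.93 (SE 0.43) that was -0.54 with the high-Y class as a term. In Rassf1a-/- livers the Sav1 allele gave this list a median difference of 0.23 beside 0.07 over all genes. There 17 of 23 were higher, beside 60.3% of all tested genes. At an unadjusted p under 0.05 in limma 5 were higher there, beside 853 of 13152.

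The 20 genes tested that lie nearest to Sav1 on its chromosome, 10 on each side, had a median difference of 0.04. Map4k5, a kinase gene, differed by 0.44, and Dmac2l, which encodes an ATP synthase factor, by -0.56. The groups of arrays overlapped for all 20.

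No gene passed an adjusted p of 0.05 in the limma fit, 0% of the 13152 tested, and none passed with the high-Y class as a term (0%). At an unadjusted p under 0.05, 222 genes were higher (1.69%) and 982 were lower (7.47%) in Sav1+/-. With the high-Y class as a term these were 154 (1.17%) and 874 (6.65%). The 20 genes with the smallest p, 10 in each direction, had adjusted p-values from 0.0748 to 0.250. The groups did not overlap for any of the 20, which fixes their direction in the low-Y arrays alone, and their median absolute difference was 0.85, 0.77 with the high-Y class as a term and 0.77 in low-Y arrays. Where the choice of setting lifted genes past the threshold, they were few. A stricter filter on signal called Slc43a1 and Alpl, a trended and robust prior called these and Rhbdd2, and leaving out wild-type replicate 3 called Slc43a1 alone, while leaving out Rassf1a-/- Sav1+/- replicate 3, which only enters the spread, called Alpl alone. Leaving out Sav1+/- replicate 2 called 6 genes, all lower, and array weights called 7, of which 6 were lower. Sav1 was among the calls of both of these.

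Slc43a1 and Alpl were the 2 genes with the smallest p. Slc43a1, which encodes the neutral amino acid transporter LAT3, was 8.77, 8.74, 8.25 and 8.33 in Sav1+/-, against 9.92, 9.84, 9.07 and 9.92 in wild type. Every Sav1+/- array lay below every wild-type array, and wild-type replicate 3 was the lowest of its group. The difference was -1.17 (SE 0.18, adjusted p = 0.0748 in limma), and -1.02 with the high-Y class as a term. Alpl, the tissue-nonspecific alkaline phosphatase, was 8.55, 8.94, 8.74 and 8.85 in Sav1+/-, against 9.82, 9.66, 9.85 and 9.70 in wild type. The gap between the groups was wider than the spread within either. The difference was -0.99 (SE 0.16, adjusted p = 0.0748 in limma), and -1.09 with an adjusted p of 0.0591 with the high-Y class as a term.

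The other lower genes included regulators and enzymes of liver metabolism. Nr1i2, which encodes the xenobiotic receptor PXR, was 10.18, 10.33, 10.27 and 10.32 in Sav1+/-, against 11.01, 10.77, 11.01 and 11.11 in wild type, a difference of -0.70 (SE 0.13, adjusted p = 0.110 in limma). Rhbdd2, a rhomboid family membrane protein, was 9.55, 9.42, 9.33 and 9.65 in Sav1+/-, against 10.47, 10.07, 10.27 and 10.45 in wild type, a difference of -0.83. Pgpep1, a pyroglutamyl peptidase, was 9.83, 9.93, 9.84 and 9.89 in Sav1+/-, against 10.54, 10.36, 10.40 and 10.54 in wild type, a difference of -0.59. In all 3 genes the 4 Sav1+/- arrays lay close together and below wild type. Miga2, a mitochondrial outer membrane protein that promotes fusion, and Neu2, a cytosolic sialidase, differed by -0.87 and -1.06. Slc51b, a subunit of the OST transporter that exports bile acids, was 6.88, 6.62, 6.33 and 6.47 in Sav1+/-, against 8.20, 8.51, 7.76 and 7.92 in wild type. Wnt5b, a Wnt ligand, was 7.31, 6.83, 6.87 and 6.74 in Sav1+/-, against 7.66, 8.32, 7.59 and 8.17 in wild type. Both averaged below the filter level in Sav1+/-, so their differences of -1.52 and -0.999 rest on dim signal in that group.

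The higher genes included 2 of innate immunity. Ly96, which encodes MD-2, the partner of the endotoxin receptor TLR4, was 10.54, 11.05, 10.79 and 10.64 in Sav1+/-, against 10.05, 10.01, 10.05 and 9.99 in wild type, a difference of 0.73 (SE 0.16, adjusted p = 0.149 in limma). Ifi27l2a, an interferon-induced gene, was 8.04, 9.16, 8.04 and 8.29 in Sav1+/-, against 7.52, 6.90, 7.07 and 6.96 in wild type, where it averaged below the filter level. The groups did not overlap for either gene. The difference of Ifi27l2a was 1.27 (SE 0.26, adjusted p = 0.149), and 1.46 with an adjusted p of 0.0869 with the high-Y class as a term. Gmip was 8.14, 8.10, 8.10 and 8.28 in Sav1+/-, against 7.46, 7.33, 7.76 and 7.55 in wild type, a difference of 0.63 (SE 0.12, adjusted p = 0.110). Pdcd10, the CCM3 protein that binds germinal centre kinases related to MST, was 8.99, 8.83, 8.93 and 9.15 in Sav1+/-, against 8.39, 8.26, 8.35 and 8.47 in wild type, a difference of 0.61. Eva1a, an autophagy protein, was 10.42 to 10.54 in Sav1+/-, against 9.97 to 10.13 in wild type. Nr1d1, the clock repressor REV-ERB alpha, was 11.28, 11.83, 12.05 and 11.79 in Sav1+/-, against 10.87, 10.82, 11.19 and 11.03 in wild type, a difference of 0.76 that was 0.57 with the high-Y class as a term. Ndrg1, a stress-induced gene, and Cacna1a, a calcium channel subunit dim in wild type, differed by 0.57 and 0.71. Dpep2, a dipeptidase, and the small nucleolar RNA Snora75 differed by 2.27 and 2.42, both from wild-type means below the filter level and both highest in Sav1+/- replicate 4.

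Where the Sav1 allele was added to Rassf1a loss, the same 20 genes had a smaller median difference, and Sav1 itself did not. Of the 20, 14 had the same direction in Rassf1a-/- Sav1+/- against Rassf1a-/- livers, beside 58.2% of all tested genes, and 13 with the high-Y class as a term, beside 56.5%. Their median absolute difference was 0.85 in Sav1+/- against wild type and 0.24 in the Rassf1a-/- pair. Sav1, Wnt5b and Nr1i2 were the 3 with an unadjusted p under 0.05 there, at -0.96, -0.66 and -0.29. The 20 were chosen by their p in Sav1+/- against wild type, which favours large differences there, so the smaller median is a description and no test. The difference between the 2 effects had an adjusted p under 0.05 for none of the 20. It had an unadjusted p under 0.05 in limma for 15 of the 20, beside 1236 of the 13152 tested genes. The way the 20 were chosen favours that count too. In the Rassf1a-/- pair limma called 1 of 13152 genes (0.0076%), Lrrc51, at -1.09 with an adjusted p of 0.0329, and Sav1 there had an unadjusted p of 3.87e-05.

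**Figure D2:**
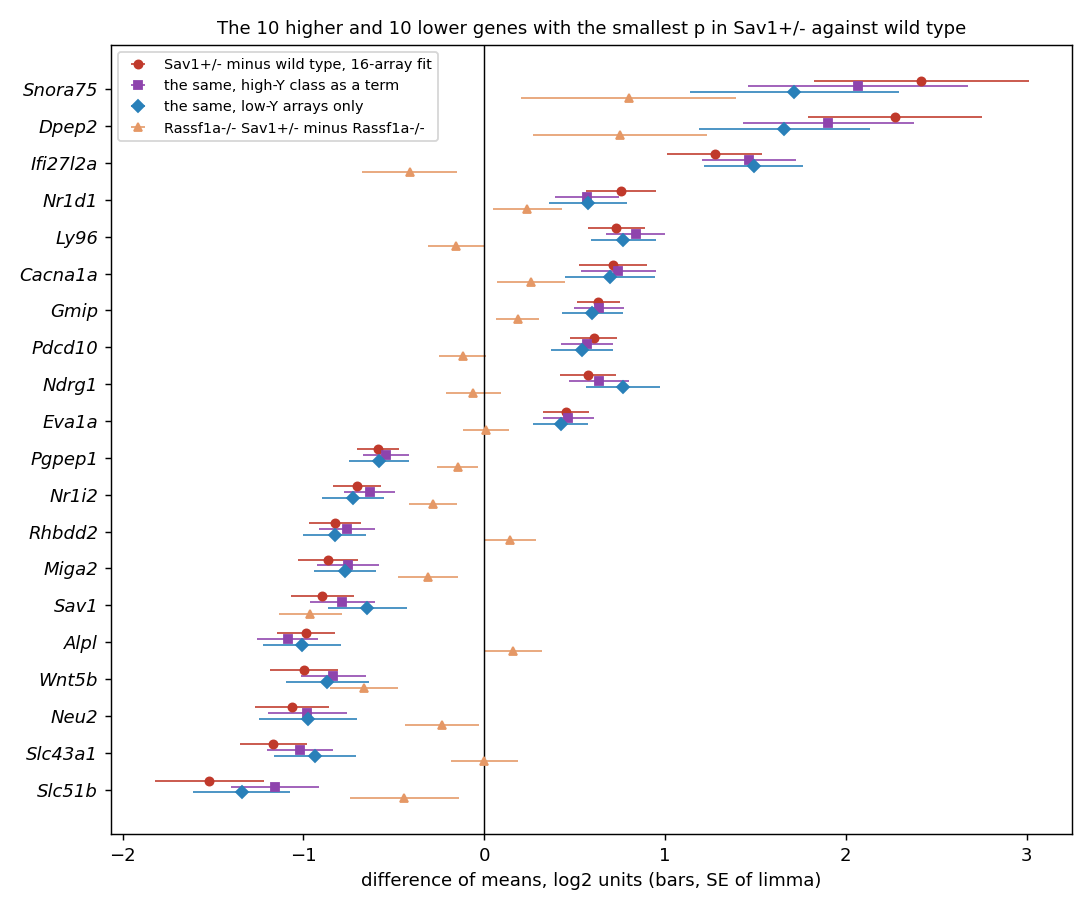
Log2 difference (x axis) with limma's SE for the 20 genes with the smallest p, as Sav1+/- minus wild type in 3 fits and as Rassf1a-/- Sav1+/- minus Rassf1a-/- livers. The 3 fits of Sav1+/- against wild type lie on the same side of 0 for every gene, while Slc43a1 has -1.17 in the first fit and -0.00 in the Rassf1a-/- pair.

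For several of the lower genes, the 3 altered genotypes all lay below wild type. Alpl averaged 8.77 ± 0.17 in Sav1+/-, 8.79 ± 0.36 in Rassf1a-/- Sav1+/- and 8.63 ± 0.17 in Rassf1a-/- livers, against 9.76 ± 0.09 in wild type (SD, n = 4 each). Rhbdd2 averaged 9.73 ± 0.27 in Rassf1a-/- Sav1+/- and 9.58 ± 0.07 in Rassf1a-/- livers, where wild type averaged 10.31. Nr1i2 averaged 10.13 ± 0.24 in Rassf1a-/- Sav1+/- and 10.42 ± 0.13 in Rassf1a-/- livers, where wild type averaged 10.98. Slc43a1 averaged 8.52 in Sav1+/- and 9.14 in each of the other 2 genotypes, against 9.68 in wild type. These comparisons share the 4 wild-type arrays, so a high level in those arrays would enter each of them. Ifi27l2a and Gmip had no such pattern. Ifi27l2a averaged 6.81 in Rassf1a-/- Sav1+/- and 7.22 in Rassf1a-/- livers, near the wild-type mean of 7.11.

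Lower genes outnumbered higher ones, but the imbalance depended on 1 array. All 4 Sav1+/- arrays lay below all 4 wild-type arrays for 558 genes (4.24%) and above them for 58 (0.441%). The 558 had a median level of 9.84 beside 8.69 over all tested genes, and a median difference of -0.40. The 58 had a median level of 8.83 and a median difference of 0.41. Without Sav1+/- replicate 1, the array with the lowest overall level, the counts were 785 below and 728 above, and genes at an unadjusted p under 0.05 in limma were 888 lower and 910 higher. Leaving out any other of the 8 arrays kept more genes below than above, with 659 to 1502 below and 86 to 269 above. Non-overlap is easier to meet with 1 array fewer, so the leave-out counts compare in balance and not in size. After each array was centred on its mean over the tested genes the counts were 467 and 139. Quantile normalization gave 978 lower and 390 higher genes at that p, a share of 71.5% lower beside 81.6% in the deposited values. Over all tested genes 45.9% had a higher mean in Sav1+/-, 45.7% with the high-Y class as a term and 42.5% in low-Y arrays. In the Rassf1a-/- pair 60.3% were higher in Rassf1a-/- Sav1+/- livers, and 60.2% with the high-Y class as a term. Of the 558, 361 were lower in the Rassf1a-/- pair as well, with a median difference of -0.08.

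**Figure D3:**
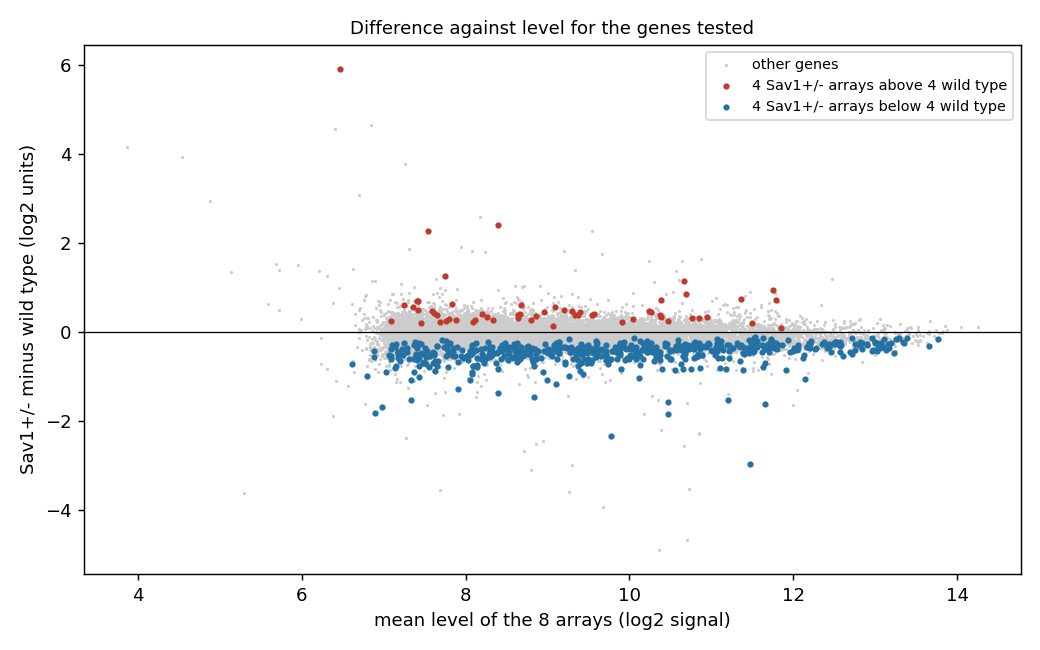
Log2 difference, Sav1+/- minus wild type (y axis), against the mean level of the 8 arrays (x axis) for 13152 genes. The 558 genes with all 4 Sav1+/- arrays below wild type have a median level of 9.84 and the 58 with all 4 above have one of 8.83, beside 8.69 over all tested genes.

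The largest differences followed the high-Y arrays. Cyp4a12a, a male-biased fatty acid hydroxylase, was 6.65, 4.93, 13.11 and 13.05 in Sav1+/-, against 4.22, 3.41, 3.28 and 3.12 in wild type. The high-Y arrays carried most of its difference of 5.93, which was 2.15 with the high-Y class as a term, and the wild-type arrays were dim. The female-biased Cyp4a14, a PPAR alpha target, was 12.19, 11.54, 9.28 and 7.003 in Sav1+/-, against 12.38, 13.05, 13.34 and 13.04 in wild type, a difference of -2.95 that was -1.22 with the term. Over the 20 largest differences without overlap, the median absolute difference was 1.55, and 0.64 with the term. Of 23 male-biased liver genes tested, 20 were higher in Sav1+/- with a median of 1.21, which was 0.10 with the term. Of 23 female-biased genes, 1 was higher with a median of -2.19, which was 0.19 with the term.

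Some genes stood out more once the high-Y class was a term. Csad, which makes the taurine precursor hypotaurine, was 8.67, 9.52, 9.83 and 10.74 in Sav1+/-, against 10.98, 11.46, 11.66 and 10.94 in wild type. Its difference was -1.57, and -1.67 with the term, without overlap between the groups. Paqr7, a membrane progestin receptor, was 7.94, 8.39, 8.69 and 9.03 in Sav1+/-, against 9.22, 9.02, 9.10 and 9.26 in wild type. Its difference was -0.64, and -0.95 with an adjusted p of 0.0591 in limma with the term, its low-Y arrays being the lowest. Spsb4, a SOCS box adaptor, differed by -0.66, and by -0.998 with an adjusted p of 0.0591 with the term, and averaged below the filter level in Sav1+/-. Slc9a8, a sodium/proton exchanger, differed by -0.62 here and by 0.49 in the Rassf1a-/- pair.

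Genes induced by type I interferon had a higher mean level in 3 of the 4 Sav1+/- arrays than in any wild-type array. Of the 25 tested, 23 had a higher mean in Sav1+/-, beside 45.9% of all tested genes, with a median difference of 0.40 (0.45 with the high-Y class as a term). At an unadjusted p under 0.05 in limma 10 were higher, beside 1.69% of all tested genes, and 1, Ifi27l2a, had groups that did not overlap, beside 0.441%. The list's mean level was 8.39, 9.51, 8.89 and 9.11 in Sav1+/-, against 8.80, 8.18, 8.47 and 8.52 in wild type. Replicate 1 of Sav1+/- lay inside the wild-type range, and the others lay above it. Rassf1a-/- replicate 4, at 8.99, lay above Sav1+/- replicate 3. Without replicate 2, the highest, 20 of 25 were higher with a median of 0.32. In the Rassf1a-/- pair 9 of 25 were higher, with a median of -0.07, beside 60.3% of all tested genes.

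Ifit1, Usp18 and Cmpk2, named for their small p, followed the same arrays, while for Ifi27l2a all 4 Sav1+/- arrays lay above wild type. Ifit1, an inhibitor of translation from viral RNA, was 8.39, 10.07, 9.68 and 9.59 in Sav1+/-, against 8.90, 7.37, 8.71 and 8.58 in wild type, a difference of 1.04 (SE 0.35, adjusted p = 0.336 in limma). Usp18, which removes ISG15 from proteins, was 7.92, 9.53, 8.96 and 9.10 in Sav1+/-, against 8.24, 7.45, 8.15 and 7.86 in wild type, a difference of 0.95. Cmpk2, a mitochondrial nucleotide kinase, was 6.66, 7.91, 8.03 and 7.84 in Sav1+/-, against 6.93, 6.54, 7.03 and 6.94 in wild type, a difference of 0.75 from a wild-type mean below the filter level. In all 3, replicates 2 to 4 lay above every wild-type array and replicate 1 did not.

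The promoters of this list are shown because its members were high in the same arrays. In the windows of 300 bases from RefSeq (GRCm38.p6), 250 before to 50 after each start, 10 of the 18 interferon-induced genes with a window held the interferon response motif GAAANNGAAA on either strand, counting overlapping matches. That is 55.6%, beside 3.51% of the 10421 tested genes with a window and 3.99% of all 27025 genes with a window. The list was made of known interferon-induced genes, so this share describes the list and not the Sav1+/- livers. The 10 holders had a median difference of 0.39 and the 8 without it 0.43. A link between the match and the size of the difference was not tested. Ifi27l2a and Usp18 were among the tested members of the list that had no window. The 4 holders with the smallest p, chosen after their values were seen, are printed 5′ to 3′ on the gene's strand with the motif, or its reverse complement, in capitals. They lie at chr19:34640639-34640938 on the plus strand for Ifit1, chr12:26456403-26456702 on the minus strand for Rsad2, chr5:120777610-120777909 on the minus strand for Oas3 and chr19:34583279-34583578 on the plus strand for Ifit3.
Ifit1: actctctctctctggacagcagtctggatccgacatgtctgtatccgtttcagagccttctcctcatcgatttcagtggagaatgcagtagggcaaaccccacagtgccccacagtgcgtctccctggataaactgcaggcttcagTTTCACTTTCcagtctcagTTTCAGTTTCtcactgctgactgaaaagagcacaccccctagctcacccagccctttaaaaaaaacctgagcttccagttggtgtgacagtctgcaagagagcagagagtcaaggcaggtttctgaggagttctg
Rsad2: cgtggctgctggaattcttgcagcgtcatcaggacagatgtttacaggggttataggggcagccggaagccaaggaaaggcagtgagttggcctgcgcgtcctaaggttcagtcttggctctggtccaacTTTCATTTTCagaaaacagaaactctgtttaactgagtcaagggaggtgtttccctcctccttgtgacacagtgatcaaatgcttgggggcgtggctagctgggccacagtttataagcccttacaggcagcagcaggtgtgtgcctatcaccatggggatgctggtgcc
Oas3: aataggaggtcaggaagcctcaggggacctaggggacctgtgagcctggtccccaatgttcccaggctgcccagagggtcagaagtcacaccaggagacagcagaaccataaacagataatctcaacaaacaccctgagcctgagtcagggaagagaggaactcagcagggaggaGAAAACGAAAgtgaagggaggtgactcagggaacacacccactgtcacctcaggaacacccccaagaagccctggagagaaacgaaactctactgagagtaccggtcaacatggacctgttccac
Ifit3: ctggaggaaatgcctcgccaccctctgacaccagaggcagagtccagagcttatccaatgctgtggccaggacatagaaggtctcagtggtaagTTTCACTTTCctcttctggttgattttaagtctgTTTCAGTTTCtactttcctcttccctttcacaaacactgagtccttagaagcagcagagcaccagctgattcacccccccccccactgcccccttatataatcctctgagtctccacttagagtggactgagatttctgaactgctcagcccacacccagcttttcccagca
Rsad2 (viperin), Oas3, which makes the activator of RNase L, and Ifit3 differed by 0.97, 0.39 and 0.56. The Ifit1 and Ifit3 windows held 2 matches each, and those of Rsad2 and Oas3 held 1. A match describes these letters and says nothing of binding in these livers.

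Genes of interferon gamma response and antigen presentation were evenly split in the 16-array fit and mostly higher with the high-Y class as a term. Of 20 tested, 10 were higher with a median of 0.02, and 1 had an unadjusted p under 0.05 in limma. With the term 18 were higher, beside 45.7% of all genes, with a median of 0.17, and 4 were higher at that p, beside 1.17%. These were Gbp3, Gbp7, Iigp1 and Cxcl9, at 1.12, 0.65, 0.55 and 0.90. In low-Y arrays the median was 0.29. The list's mean level was 9.78, 10.33, 9.45 and 9.64 in Sav1+/-, against 9.92, 9.48, 9.82 and 9.62 in wild type. Only Sav1+/- replicate 2, a low-Y array, lay above the highest wild-type array. Iigp1, an immunity-related GTPase, was 11.39, 12.30, 11.53 and 11.92 in Sav1+/-, against 11.65, 10.86, 11.14 and 11.39 in wild type, a difference of 0.52. Of 13 endotoxin sensing genes 5 were higher, with a median of -0.02, and Ly96 was the 1 with an unadjusted p under 0.05. Beta tubulins (5 tested, 4 higher, median 0.10) and Tbk1 with its partners (10 tested, 5 higher, median -0.01) had no member at that p. Acute phase genes (25 tested, 8 higher, median -0.07), immediate early genes (12 tested, 4 higher, median -0.06) and genes of the unfolded protein response (22 tested, 14 higher, median 0.03) had none either in the 16-array fit. The direction of the last 2 lists turned with the high-Y class as a term. Immediate early genes were then higher for 8 of 12 (median 0.09) and unfolded protein response genes for 5 of 22 (-0.07), with Herpud1 lower at that p, while acute phase genes were higher for 12 of 25 (-0.01). The 25 include Olfr48, an olfactory receptor gene by its name, which was counted with the acute phase genes.

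Markers of liver macrophages were high in 1 of the arrays where interferon-induced genes were high. All 15 Kupffer cell and macrophage markers tested, of 16 listed, had a higher mean in Sav1+/-, with a median of 0.35, and none had an unadjusted p under 0.05 in limma. With the high-Y class as a term the median was 0.37 and 4 were higher at that p, Clec4f, Vsig4, Cd163 and Folr2, beside 1.17% of all genes, and in low-Y arrays the median was 0.53. Their mean level was 9.65, 11.01, 9.88 and 10.13 in Sav1+/-, against 9.83, 9.57, 10.32 and 9.56 in wild type. Only Sav1+/- replicate 2 lay above the highest wild-type array. Without it 9 of 15 were higher, with a median of 0.06. In the Rassf1a-/- pair 14 of 15 were higher, beside 60.3% of all tested genes, with a median of 0.35. There 4 were higher at an unadjusted p under 0.05 in limma, beside 853 of 13152 genes. Cd163, a macrophage scavenger receptor, was 9.47 in that array and 7.58 to 8.41 in the other Sav1+/- arrays, against 7.51 to 7.83 in wild type. In bulk liver RNA, more cells of a type and more RNA per cell cannot be told apart. Without Sav1+/- replicate 2 the interferon-induced genes had a median of 0.32 and the macrophage markers one of 0.06. The part of macrophage content in the interferon-induced differences was not tested.

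Lists of lymphocyte, neutrophil, cholangiocyte and erythroid markers had few tested members, while all 10 endothelial and all 11 stellate cell and fibroblast markers were tested. Several of these lists moved with the high-Y term. Endothelial markers were higher for 6 of 10 with a median of 0.07, for 9 of 10 (0.13) with the term, and for 1 of 10 without Sav1+/- replicate 2. T cell markers were higher for 4 of 4 (median 0.21), B and plasma cell markers for 2 of 3 (0.03), NK cell markers for 1 of 2 (0.04) and neutrophil markers for 1 of 2 (0.14). Stellate cell and fibroblast markers were higher for 5 of 11 (-0.02), cholangiocyte and progenitor markers for 2 of 5 (-0.01) and erythroid markers for 2 of 2 (1.12). Under the high-Y term the medians were 0.25 for T cell, 0.26 for B and plasma cell, 0.11 for NK cell, 0.56 for neutrophil, 0.04 for stellate cell, 0.32 for cholangiocyte (4 of 5 higher) and 0.86 for erythroid markers. In low-Y arrays they were 0.66 for B and plasma cell and 0.41 for cholangiocyte markers. Prom1, a progenitor marker that is also on the female-biased list, differed by -0.37, or 1.55 with the term. Alas2, the erythroid enzyme of haem synthesis, was 10.22, 11.43, 11.99 and 12.13 in Sav1+/-, against 10.91, 9.36, 10.09 and 9.02 in wild type, a difference of 1.59 that was 0.59 with the high-Y class as a term. Genes of fibrosis and TGF beta signalling were higher for 9 of 19 (-0.00), and for 11 of 19 (0.05) with the term.

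**Figure D4:**
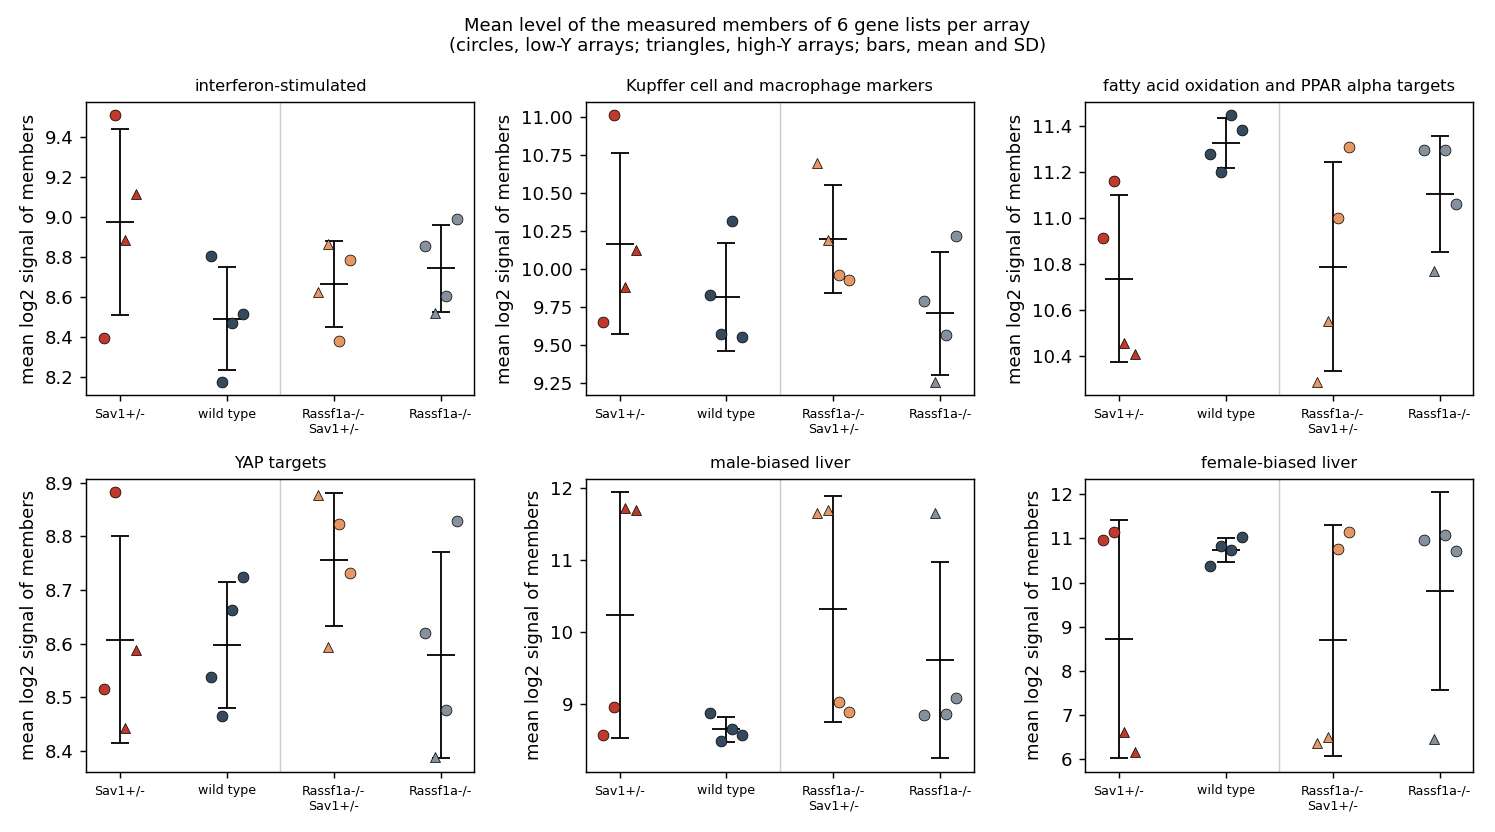
Mean log2 signal of the measured members (y axis) of 6 gene lists in each array of the 4 genotypes, with circles for low-Y and triangles for high-Y arrays and bars for mean and SD. Sav1+/- replicate 2 is the highest Sav1+/- array for interferon-induced genes (9.51), macrophage markers (11.01) and YAP targets (8.88), and the 4 Sav1+/- arrays all lie below the wild-type arrays for fatty acid oxidation (10.41 to 11.16, against 11.20 to 11.45).

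Fatty acid oxidation and PPAR alpha target genes had lower means in Sav1+/- livers. Of 34 tested, 30 had a lower mean, with a median of -0.30 beside -0.02 over all genes, and 14 were lower at an unadjusted p under 0.05 in limma beside 7.47% of all genes. For 5 the groups did not overlap, beside 4.24%. The list's mean level was 10.92, 11.16, 10.46 and 10.41 in Sav1+/-, against 11.28, 11.20, 11.45 and 11.38 in wild type. The high-Y arrays were the lowest, and the low-Y arrays also lay below wild type. With the high-Y class as a term the median was -0.24, with 33 lower and 9 of them at that p, and in low-Y arrays alone it was -0.22. Acot3, Cyp4a10 and Cyp4a14 are also on the female-biased list. Crat, the carnitine acetyltransferase, was 10.76, 11.01, 10.66 and 10.38 in Sav1+/-, against 11.31, 11.47, 11.72 and 11.52 in wild type, a difference of -0.80 (SE 0.19, adjusted p = 0.182). Acot1, a cytosolic acyl-CoA thioesterase, was 7.81, 6.80, 6.86 and 6.86 in Sav1+/-, where it averaged below the filter level, against 7.64, 8.99, 8.81 and 8.26 in wild type. The peroxisomal enzymes Acaa1b and Ehhadh differed by -0.58 and -0.53. No member passed the adjusted threshold. In the Rassf1a-/- pair the median was -0.14 beside 0.07 over all tested genes, with 9 of 34 higher beside 60.3%.

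Lipid synthesis genes had lower medians in the 16-array fit and medians nearer 0 with the high-Y class as a term. Of 22 fatty acid synthesis genes 4 were higher with a median of -0.20, which was -0.05 with the high-Y class as a term and 0.07 in low-Y arrays. Elovl3 of these is also on the male-biased list. Of 18 cholesterol synthesis genes 5 were higher with a median of -0.20, which was -0.05 with the term and 0.19 in low-Y arrays. Insig1, which retains SREBP in the endoplasmic reticulum, was 12.59, 12.45, 12.11 and 12.21 in Sav1+/-, against 12.64, 12.76, 12.87 and 13.21 in wild type, without overlap, and differed by -0.53, or -0.38 with the term. Its high-Y arrays were the lowest, and the low-Y Sav1+/- arrays also lay below wild type.

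Bile acid genes leaned lower. Of 27 tested 9 were higher, beside 45.9% of all genes, with a median of -0.15 (-0.14 with the high-Y class as a term). At an unadjusted p under 0.05 in limma 6 were lower, beside 7.47% of all genes, and 6 with the term, beside 6.65%. Slc10a1 (NTCP), which takes bile acids up from blood, was 13.35, 13.55, 13.57 and 13.57 in Sav1+/-, against 13.82, 13.82, 13.78 and 13.84 in wild type, a difference of -0.30 (SE 0.10, adjusted p = 0.333). Slc27a5, which conjugates bile acids to CoA, differed by -0.32, with replicate 2 of Sav1+/- inside the wild-type range. Alpl and Slc51b, described above, are on this list. Its members Cyp7b1 and Slco1a1 are also on the male-biased list. In the Rassf1a-/- pair 22 of 27 were higher, beside 60.3% of all tested genes, with a median of 0.18 beside 0.07.

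Xenobiotic receptors and their targets leaned lower too. Of 25 tested 7 were higher, beside 45.9% of all genes, with a median of -0.09 (-0.23 with the term). At an unadjusted p under 0.05 in limma 6 were lower, beside 7.47% of all genes, and 4 with the term, beside 6.65%. Beside Nr1i2, Nr1i3, which encodes the receptor CAR, was 11.04, 10.75, 11.15 and 11.11 in Sav1+/-, against 11.47, 11.26, 11.40 and 11.56 in wild type, a difference of -0.41 (SE 0.15, adjusted p = 0.396 in limma). Both receptors were lower in every Sav1+/- array than in any wild-type array. Gsta4, a glutathione transferase, and Ces2a, a carboxylesterase, differed by -0.45 and -0.43. Gstp1 of this list is also on the male-biased list, and Cyp3a16 on the female-biased list.

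Amino acid transporters leaned lower, and this depended on 1 array. Of 24 tested 4 were higher, beside 45.9% of all genes, with a median of -0.15 (-0.14 with the high-Y class as a term), and without Sav1+/- replicate 1 these were 11 of 24 and -0.01. Beside Slc43a1, Slc6a13, which carries GABA and taurine into hepatocytes, was 11.68, 12.15, 11.84 and 11.67 in Sav1+/-, against 12.30, 12.39, 12.53 and 12.42 in wild type, a difference of -0.57 (SE 0.13, adjusted p = 0.149 in limma). Slc38a2, a system A transporter, was 11.35, 12.58, 11.80 and 12.17 in Sav1+/-, against 11.68, 11.26, 11.41 and 11.55 in wild type, a difference of 0.50. In the Rassf1a-/- pair 22 of 24 transporters were higher, beside 60.3% of all tested genes, with a median of 0.25 beside 0.07.

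Glucose genes were higher for 8 of 24, beside 45.9% of all genes, with a median of -0.11. Under the high-Y term these were 12 of 24 and 0.01, and leaving out 1 of the 8 arrays gave medians from -0.25 without Sav1+/- replicate 2 to -0.02 without Sav1+/- replicate 1. Ppp1r3b, which targets a phosphatase to glycogen, was 10.86, 10.95, 10.12 and 10.64 in Sav1+/-, against 10.89, 11.55, 11.49 and 12.04 in wild type, a difference of -0.85 (SE 0.25). Slc2a2 (GLUT2) was 11.68, 12.01, 11.74 and 11.84 in Sav1+/-, against 12.06, 12.12, 12.13 and 12.45 in wild type, without overlap, a difference of -0.37.

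Cell cycle genes were dim in these livers, and 17 of the 33 listed were tested. Of these 11 were higher, with a median of 0.11, and 3 were higher at an unadjusted p under 0.05, beside 1.69% of all tested genes. Under the high-Y term 12 were higher, with a median of 0.07, and 1 had that p. Ccnb2, a mitotic cyclin, was 9.86, 9.63, 9.71 and 9.73 in Sav1+/-, against 9.33, 9.30, 9.54 and 9.23 in wild type, without overlap, a difference of 0.38 (SE 0.15, adjusted p = 0.415 in limma). Aurka, a mitotic kinase, was 8.37, 7.42, 8.25 and 7.87 in Sav1+/-, against 7.08, 7.55, 7.71 and 7.26 in wild type, a difference of 0.58 with overlap. Top2a, a topoisomerase of dividing cells, differed by 0.89 from a wild-type mean below the filter level.

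Of 18 clock genes 6 were higher, with a median of -0.18, or -0.09 with the high-Y class as a term. The groups did not overlap for 5 of them, Nr1d1 above, beside 0.441% of all genes, and 4 below, beside 4.24%. Wee1, a clock-driven kinase, was 9.23, 8.99, 8.50 and 9.13 in Sav1+/-, against 9.50, 9.34, 10.17 and 10.58 in wild type, a difference of -0.94. The sources used here do not give the time of day, and its part in these values was not tested. Pericentral genes were higher for 6 of 19 (median -0.10, or -0.01 with the term) and periportal genes for 4 of 16 (-0.15, or -0.15 with the term). Notum, a pericentral Wnt antagonist, was 9.03, 9.48, 8.80 and 9.25 in Sav1+/-, against 9.92, 9.63, 10.04 and 9.72 in wild type, a difference of -0.68 (SE 0.17, adjusted p = 0.182 in limma) that was 0.35 in the Rassf1a-/- pair. Asl, a urea cycle enzyme of periportal cells, differed by -0.58, or -0.34 with the high-Y class as a term. Of 22 Notch and Wnt genes 9 were higher, with a median of -0.07, which was -0.00 with the term. Beside Wnt5b, Dll4, a Notch ligand of endothelium, was 7.91, 8.10, 7.79 and 7.93 in Sav1+/-, against 8.22, 8.39, 8.17 and 8.50 in wild type, a difference of -0.39, and the receptor Fzd4 differed by -0.68.

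**Figure D5:**
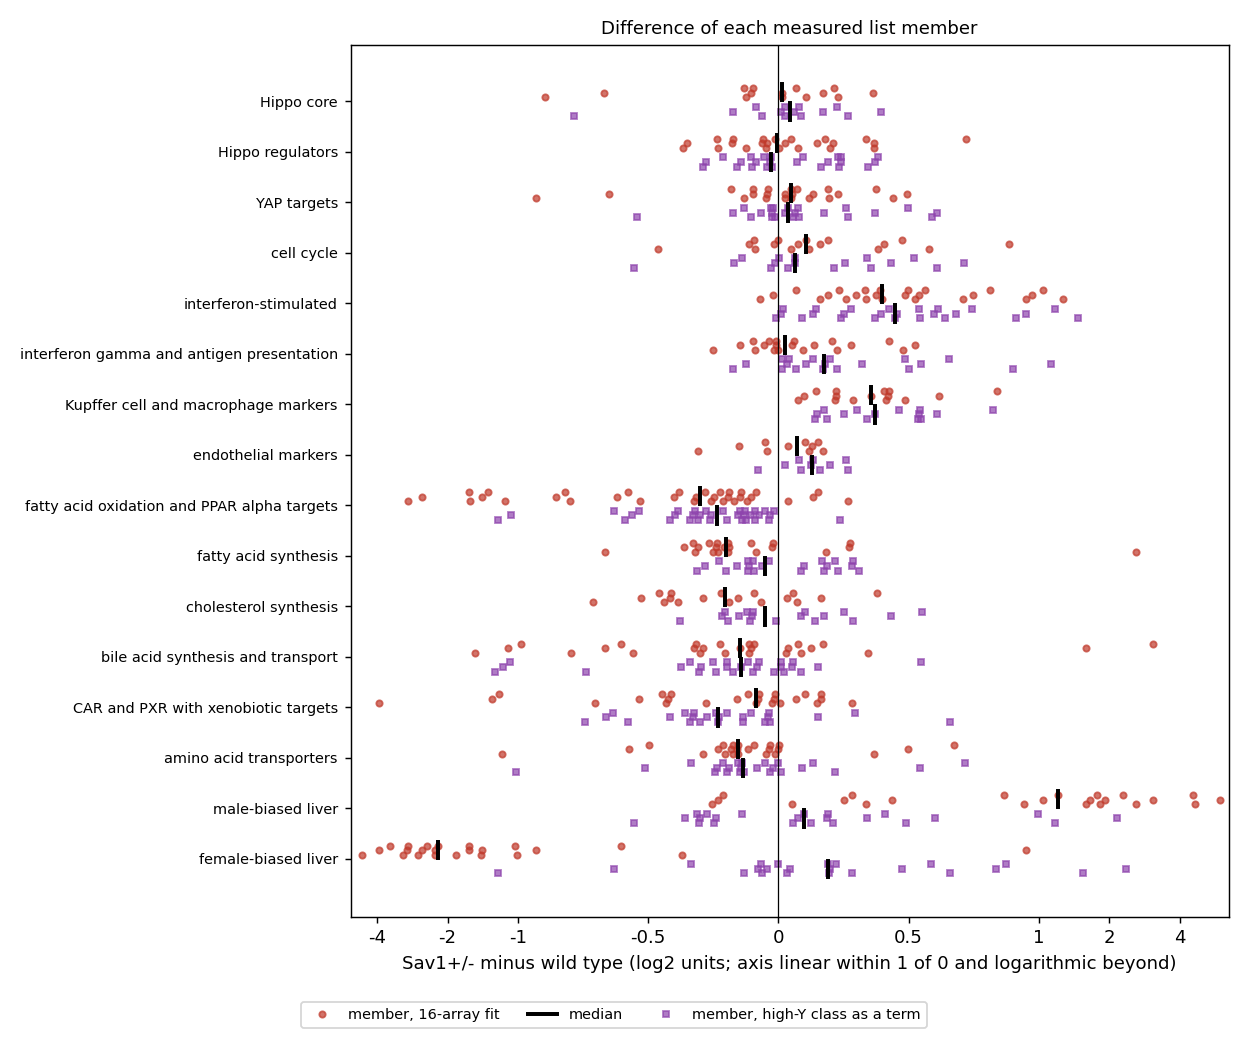
Log2 difference, Sav1+/- minus wild type (x axis, linear within 1 of 0 and logarithmic beyond), of each tested member of 16 gene lists, from the 16-array fit (circles) and with the high-Y class as a term (squares), with bars at the medians. Interferon-induced genes have medians of 0.40 and 0.45 and fatty acid oxidation genes -0.30 and -0.24 in the 2 fits, while female-biased genes have -2.19 and 0.19.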

How the data were processed

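Total RNA of mouse liver, 4 samples of each of 4 genotypes, was hybridised to Affymetrix whole-transcript arrays. The deposited values are log2 signals of 35556 probe sets. The submitters' processing notes name Affymetrix Expression Console as the software the authors used, and the sources used here give neither its version nor the summarisation or normalization. With 4 arrays a group, array number bounds the precision. The platform annotation names 1 gene for 21789 probe sets (19938 genes), several genes for 1621 and none for 12146. Of the 21789, 21698 matched RefSeq (GRCm38.p6) by gene ID.

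Probe sets at or above the 40th percentile of an array (the filter level) in at least 4 arrays were retained, and the one with the highest mean over 16 arrays stood for its gene, which left 13152 genes. R 4.3.3 with limma 3.58.1 fitted these (lmFit, then eBayes) as 4 genotype means over 16 arrays with 12 residual degrees of freedom. Tests were two-sided, with Benjamini-Hochberg adjustment over all genes and calls at an adjusted p under 0.05. All differences are log2, with limma's SE. The fit was checked on simulated data. Tables and figures used Python 3.11.15, numpy 2.4.6, scipy 1.17.1, pandas 2.3.3 and matplotlib 3.10.9. An array was high-Y where the mean of the measured Y-linked genes (3 of the 4 in the rule) exceeded Xist, which held for 5 of 16.

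The text names Sav1, Rassf1 and the Hippo core genes, up to 10 genes in each direction with the smallest p, up to 10 in each direction with the largest difference among groups that do not overlap, up to 8 in each direction with the smallest p with the high-Y class as a term, and up to 4 members of each list with the smallest p. Genes with clone or model codes are counted and not named. Of the genes on 38 lists, each counted once, 578 were tested, 88 were below the filter and 62 had no probe set of their own. The comparison, its gene lists and its rules were chosen with earlier results of these data known, so lists are described by counts and medians and not tested. Alternatives were another filter, other handling of probe sets, other normalization, the high-Y class, other variance settings and each array left out. Non-overlapping counts without 1 array and after centring were added after seeing the data.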

Additional observations from a re-analysis of the deposited data

Results flagged for a closer look

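Among the named genes, 226 groups of 4 arrays were examined, and in 16 of them 1 array lay apart from the other 3 by more than Dixon's 95% critical share of the group's range. Chance flags about 1 in 20 groups. In Sav1+/- livers, replicate 1 was the lowest array for Cmpk2 (6.66, next 7.84), Mlxipl (10.62, next 10.90), Slc10a1 (13.35, next 13.55), Clock (9.36, next 10.37) and Hes1 (6.86, next 7.43). It was the highest for Acot1 (7.81, next 6.86). Sav1+/- replicate 2 was the highest for Slc27a5 (13.11, next 12.67). In wild-type livers, replicate 1 was the lowest for Gsta4 (10.96, next 11.33) and for Tead2 (7.74, next 7.93). Wild-type replicate 2 was the highest for Snora75 (8.41, next 6.93) and Clock (9.86, next 9.57), and the lowest for Npl (6.74, next 7.13) and Hes1 (6.84, next 8.09). Wild-type replicate 3 was the lowest for Slc43a1 (9.07, next 9.84) and the highest for Lyz2 (12.09, next 11.30). Wild-type replicate 4 was the highest for Neu2 (9.10, next 8.43).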

How the results depend on the processing

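The 0 calls in Sav1+/- against wild type (limma; 1204 genes at an unadjusted p under 0.05) became 2 with a stricter filter, 3 with a trended and robust prior and 7 with array weights (Sav1 among them), and 0 to 6 with 1 array left out. With the high-Y class as a term, leaving out 1 of the 8 arrays gave 0 to 1. The 1 call in the Rassf1a-/- pair became 0 with no filter, without the high-Y arrays or after quantile normalization, 55 with a stricter filter, 68 with a trended and robust prior, 167 after median centring and 1979 with array weights. Genes with all Sav1+/- arrays above wild type numbered 139 after centring each array on its mean, and 86 to 728 with 1 array left out, beside 659 to 1502 below. With 1 array fewer, non-overlap is easier to meet. Single genes turned direction. Olfr987, at -1.80, came to -0.09 with the high-Y class as a term and 0.0848 with mean Y-linked signal as a covariate, and Timm9, at 0.34, to -0.00979 without high-Y arrays. Genes near 0 also turned, Wwtr1 to -0.0174 and Tead4 to -0.0289 with array weights, Tead2 to 0.0104 and Nf2 to 0.0273 with the high-Y class as a term, and Tead2 to 0.0184 and Nf2 to 0.0361 with the covariate. With 1 array left out, values ranged from -0.0391 to 0.16 for Stk4, -0.0060 to 0.26 for Lats1, -0.11 to 0.38 for Mob1a, -0.0176 to 0.31 for Yap1, -0.0866 to 0.12 for Wwtr1, -0.23 to 0.00416 for Tead2, -0.23 to 0.0368 for Tead3, -0.16 to 0.14 for Tead4, -0.24 to 0.10 for Nf2 and -0.13 to 0.25 for Rassf1. The causes were not tested. No paired analysis was possible because replicate numbers are absent from the labels. Signal near the filter level limits dim genes.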
